A study of Mus musculus with 4 samples.

Results

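The cells described here are intestinal fibroblasts that carried transcripts of Grem1, Ogn, C3, Ackr4 or Col14a1. They were found among cells that had been sorted as group 3 innate lymphoid cells (ILC3s) from the small-intestinal lamina propria, the connective tissue under the gut epithelium. The donors were Cxxc1flox/flox mice aged 6 to 8 weeks that also carried a cre transgene. The 4 deposited samples were 2 replicates with 2 sequencing libraries each, and both libraries of a replicate shared 1 table and 1 sample tag. All of them belonged to 1 group, so nothing here compares Cxxc1-deficient with Cxxc1-sufficient mice, and the labels do not say whether the replicates were separate animals. P-values therefore rest only on how far differences between classes of cells varied between these 2 replicates. This spread may be technical and was largely pooled over genes.

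A kept cell carried sample tag 4 in the capture of 8064 cells (replicate 1) or tag 2 in the capture of 15793 cells (replicate 2), with at least 300 genes detected and at most 25% mitochondrial UMIs (unique molecular identifiers, 1 per captured transcript). A stromal cell held at least 10 UMIs of Col1a1, Col1a2, Col3a1 and Dcn together. A member held, besides, at least 3 UMIs of C3, Ogn, Ackr4, Grem1 and Col14a1 together. Members were thus chosen by the measured counts of these 9 genes, so the levels of those genes are a description. C3, Ogn, Ackr4, Grem1 and Col14a1 were not tested in any comparison. Col1a1, Col1a2, Col3a1 and Dcn were left out of the tests against lymphocytes. They were kept in the tests against other stromal cells and between members with and without Grem1. The rule found 343 members in replicate 1 and 263 in replicate 2, which is 606 of 6130 kept cells and 606 of 708 stromal cells. They made up 17.6% and 6.28% of the kept cells of the replicates. Since the cells came from a sort for another cell type, these shares say nothing about how common the fibroblasts are in the tissue.

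Fibroblasts of the intestinal lamina propria build the collagen and proteoglycan matrix and send signals to the epithelium. Around the crypts, trophocytes secrete Gremlin 1, an antagonist of bone morphogenetic proteins (BMPs), with R-spondins that strengthen WNT signals, and both support the stem cells at the crypt base. Nearer the villi, subepithelial telocytes with high Pdgfra secrete BMPs that favour differentiation. Adventitial fibroblasts lie around larger vessels and are known for Cd34, Pi16 and complement genes.

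The members were deeply sampled cells. They held 2987675 and 1930477 UMIs in all, with medians of 8504 and 6983 UMIs and 2789 and 2431 genes per cell, and median mitochondrial shares of 4.30% and 5.10%. The whole tagged sets held 11939862 and 12141164 UMIs, and 7 cell indices occurred in both replicates. The 2 classes set beside the members were the other 71 and 31 stromal cells, with medians of 5853 and 2665 UMIs, and 618 and 3267 lymphocytes, with medians of 3139.5 and 2327 UMIs. A lymphocyte held at least 2 UMIs of 9 T cell or ILC genes, at most 2 stromal and 2 myeloid UMIs and under 10% immunoglobulin UMIs.

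RNA of other cell types was present in the members and differed between replicates. At least 1 UMI of 7 lymphocyte genes (Ptprc, Cd3d, Cd3e, Cd3g, Trac, Trbc1, Trbc2) was found in 78 members of replicate 1 (22.7%, exact Clopper-Pearson 95% interval 18.4 to 27.5%) and in 141 members of replicate 2 (53.6%, 47.4 to 59.8%). The interval covers counting error only. Members with 5 or more such UMIs numbered 13 and 85, and 13 and 3 members held at least 10% immunoglobulin UMIs. The doublet caller Scrublet marked 41 kept cells (2.11%) in replicate 1 and 5 (0.119%) in replicate 2. Without its calls replicate 2 kept all 263 members, so doublets must be allowed for in the class. The source of the lymphocyte RNA in members was not tested. A stricter set, chosen after the data had been seen, held at least 30 stromal UMIs, no UMI of the 7 lymphocyte genes and under 10% immunoglobulin UMIs, and kept 261 and 116 members. It is called the strict set below.

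The genes that give the cells their name were all present at high levels in both replicates. Levels are CPM, the UMIs of a gene summed over the cells of a class and replicate and scaled to a class total of 1e+06. C3, the central component of complement (chromosome 17, 57203970 to 57228136, minus strand; GRCm38, GENCODE vM21), stood at 2835 and 4909 CPM in the members of replicates 1 and 2. In other stromal cells it stood at 44.9 and 155 CPM, and in lymphocytes at 27.6 and 10.3 CPM. Grem1, the gene of Gremlin 1 (chromosome 2, 113746164 to 113758646, minus strand), stood at 1670.5 and 2370.4 CPM against 16.2 and 18.2 CPM in other stromal cells and 7.61 and 4.13 CPM in lymphocytes. Members were above the other 2 classes in both replicates, as the rule demands of the sum of these genes.

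Col14a1 (chromosome 15, 55307750 to 55520803, plus strand) encodes a collagen that associates with fibrils, and stood at 1143 and 1778 CPM in members. Ackr4 (chromosome 9, 104084157 to 104126933, minus strand), a scavenger receptor that removes the chemokines CCL19, CCL21 and CCL25, stood at 281 and 469 CPM. Ogn (chromosome 13, 49608046 to 49624501, plus strand), which encodes the small proteoglycan osteoglycin, stood at 235 and 478 CPM. Cilp, a matrix protein gene given as a marker of these cells but not part of the rule (chromosome 9, 65265180 to 65280605, plus strand), stood at 228 and 587 CPM. In lymphocytes these 4 genes ranged from 0 (Cilp, replicate 1) to 12.4 CPM (Col14a1, replicate 1).

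**Figure D1:**
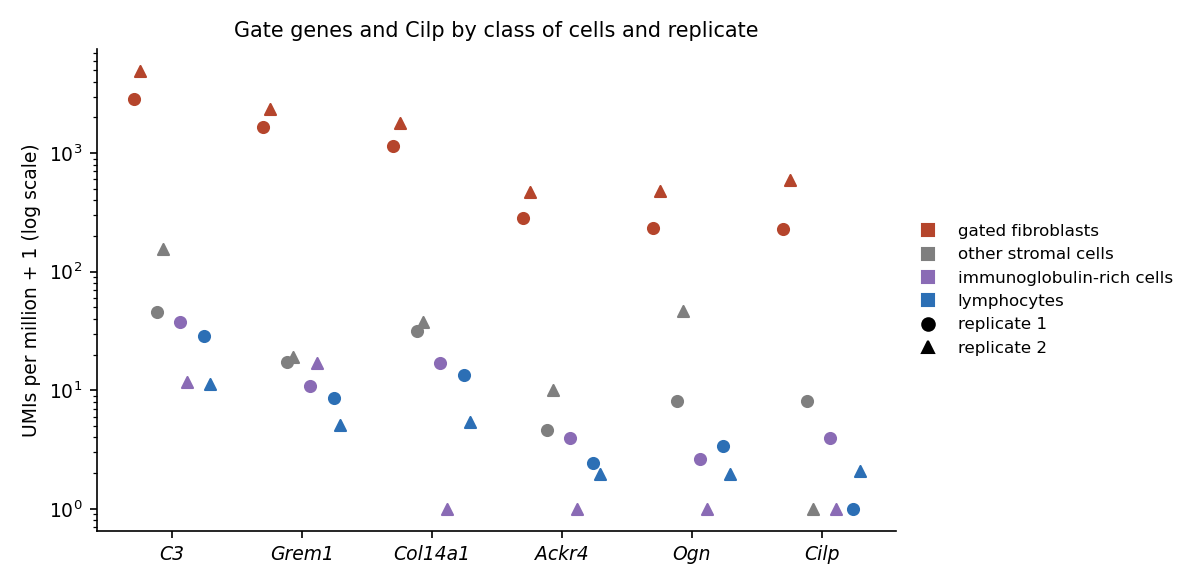
CPM plus 1 (log axis) of the 5 genes of the rule and of Cilp in 4 classes of cells, with 1 point per class and replicate. Members lie above every other class for each gene, and replicate 2 lies above replicate 1 in members, by 1.42-fold for Grem1 up to 2.58-fold for Cilp.

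All 6 genes were higher in the members of replicate 2 than in those of replicate 1. The ratio of replicate 2 to replicate 1 was 1.73 for C3, 1.42 for Grem1, 1.56 for Col14a1, 1.67 for Ackr4, 2.04 for Ogn and 2.58 for Cilp. The counting intervals of the replicates did not overlap for any of them, for example 218 to 253 against 447 to 509 CPM for Ogn. With 1 sum per replicate there is no test of a difference between replicates. In the strict set the same direction held, with Ogn at 245 and 532 CPM, C3 at 3117 and 5680 CPM and Cilp at 267 and 656 CPM.

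The share of members with a UMI differed from gene to gene. C3 was detected in 96.5% and 98.9% of members, Col14a1 in 88.0% and 93.2%, and Grem1 in 81.9% and 83.3%. Ackr4 was detected in 48.4% and 55.5%, Cilp in 41.7% and 58.6%, and Ogn in 36.4% and 61.2%. In lymphocytes, which should lack these genes, the shares were 9.22% and 2.51% for C3, 2.27% and 0.857% for Grem1, and 0.809% and 0.245% for Ogn, at the lower median depths given above.

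After each cell was thinned to 2000 UMIs, which left 331 and 248 members and 548 and 2121 lymphocytes deep enough, members still had C3 in 91.5% and 92.7% of cells against 5.29% and 1.79% of lymphocytes. Grem1 stood at 70.7% and 74.2% against 2.01% and 0.707%. Ogn stood at 22.7% and 43.5% against 0.547% and 0.141%, and Ackr4 at 27.8% and 40.7% against 0.365% and 0.283%. The difference between replicates in Ogn and Ackr4 detection thus remained at equal depth.

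Most members carried several of the 5 genes. All 5 were detected in 78 members of replicate 1 (22.7%) and 117 of replicate 2 (44.5%), and 4 of them in 96 and 49 members. Only 10 members of replicate 1 and 1 of replicate 2 carried a single gene. Ogn and Ackr4 were often found in the same cells: Ogn was detected in 51.2% of members with an Ackr4 UMI and in 22.6% of those without in replicate 1, and in 82.2% against 35.0% in replicate 2. Deeper cells detect more of both genes, and the part of depth in this overlap was not tested.

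The edge of the class was thin. Just inside the threshold, with a sum of exactly 3 UMIs, lay 6 and 10 members, with median stromal sums of 36.5 and 16.5 UMIs. Just outside, with a sum of 2, lay 13 and 10 cells with median stromal sums of 14 and 38 UMIs. The typical member lay far from the edge, with a median of 41 and 57 UMIs of the 5 genes (highest 322 and 488) and 515 and 361 stromal UMIs.

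**Figure D2:**
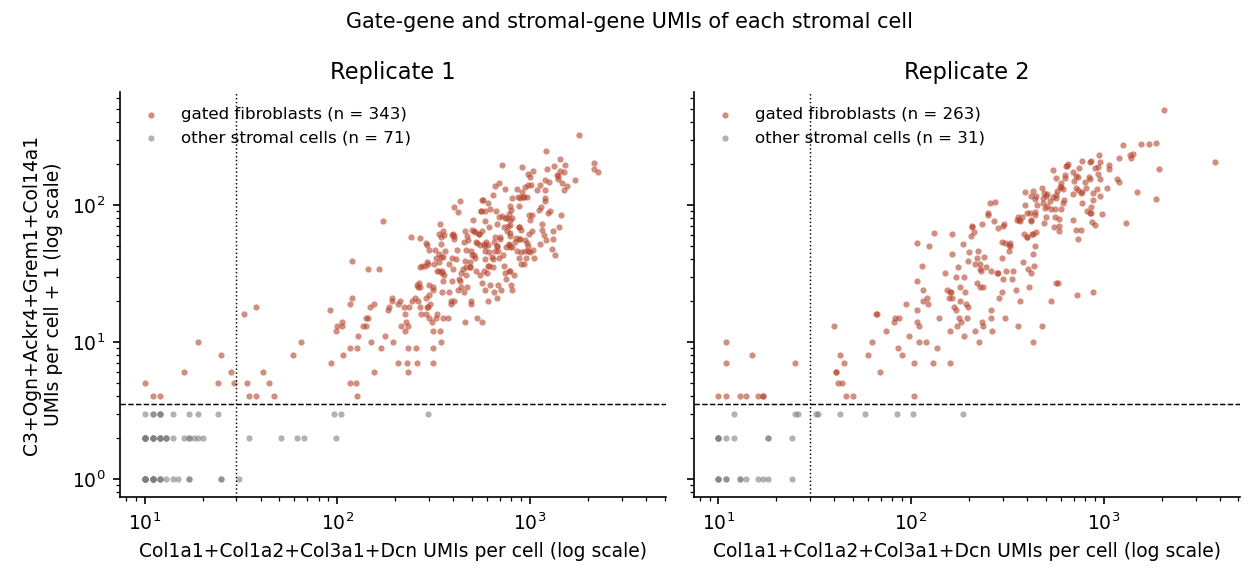
UMIs of the 5 rule genes plus 1 (vertical, log axis) against UMIs of the 4 stromal genes (horizontal, log axis), with 1 point per stromal cell and a panel per replicate. The dashed line is the member threshold and the dotted line marks 30 stromal UMIs, above which 334 and 252 members but only 9 and 7 other stromal cells lie.

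Members were 82.8% of the stromal cells in replicate 1 (exact 95% interval 78.9 to 86.4%) and 89.5% in replicate 2 (85.4 to 92.7%). Among cells with at least 30 stromal UMIs they were 97.4% and 97.3%. The other stromal cells mostly sat at the lower bound of the stromal gate, with medians of 12 and 16 stromal UMIs. In replicate 1, 43 of the 71 held at least 10% immunoglobulin UMIs, and in replicate 2, 24 of the 31 held at least 2 UMIs of the lymphocyte gate.

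Lists of marker genes were then used to check what kind of cell the members are. The 25 pan-fibroblast genes were all detected in both replicates, and their summed level was 50978 and 40908 CPM in members against 1533 and 1554 CPM in lymphocytes. The 11 trophocyte genes were all detected as well (10841 and 7981 CPM against 628 and 635 CPM), and so were the 21 adventitial genes (16675 and 15227 CPM against 738 and 705 CPM). The 17 subepithelial telocyte genes, of which 14 and 15 had a UMI, summed to 843 and 961 CPM against 36.6 and 26.2 CPM in lymphocytes. Of that sum Bmp4, a BMP ligand, gave 467 and 515 CPM, and Foxl1, the transcription factor that defines telocytes, had no UMI in the members of either replicate. Pdgfra, the receptor that is high in telocytes and low in trophocytes, stood at 444 and 371 CPM in members and was detected in 85.1% and 76.0% of them. Cd81, a trophocyte surface marker, stood at 75 and 162 CPM, against 27.6 and 24.3 CPM in lymphocytes.

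Some defining markers of other lineages were at 0 and others were detected. Of 14 endothelial genes 11 had a UMI in members of replicate 1 and 9 in replicate 2, among them Plvap at 32.1 and 30.04 CPM and the receptor Tek at 19.1 and 11.9 CPM. Cdh5, Kdr and Cldn5 had no UMI in members of either replicate, and of the sum of 258 and 247 CPM the receptor component Ramp2 gave 181 and 159 CPM. Among 8 mesothelial genes, Msln, Lrrn4, Gpm6a and Bnc1 had none, and the list summed to 1.00 and 1.55 CPM. The 15 epithelial genes summed to 15.1 and 11.4 CPM, below their sum in lymphocytes. Of the 8 glial genes the sum was 235 and 258 CPM, nearly all of it from the sodium channel gene Scn7a at 233 and 254 CPM, while Gfap was at 0.

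The 12 myeloid genes summed to 105 and 279 CPM against 904 and 875 CPM in lymphocytes. Smooth muscle genes were uneven between replicates. The 12 genes summed to 918 CPM in replicate 1 and 277 CPM in replicate 2. Myh11, the smooth muscle myosin heavy chain, stood at 53.2 and 0 CPM, and Actg2, the enteric smooth muscle actin, at 56.2 and 0 CPM. The 9 plasma cell genes summed to 22444 and 5885 CPM in members, above the 5174 and 650 CPM of lymphocytes, and to 4468 and 947 CPM in the strict set. The 16 T cell or ILC genes summed to 337 and 1837 CPM against 6973 and 9583 CPM in lymphocytes, and to 55.3 and 160 CPM in the strict set.

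**Figure D3:**
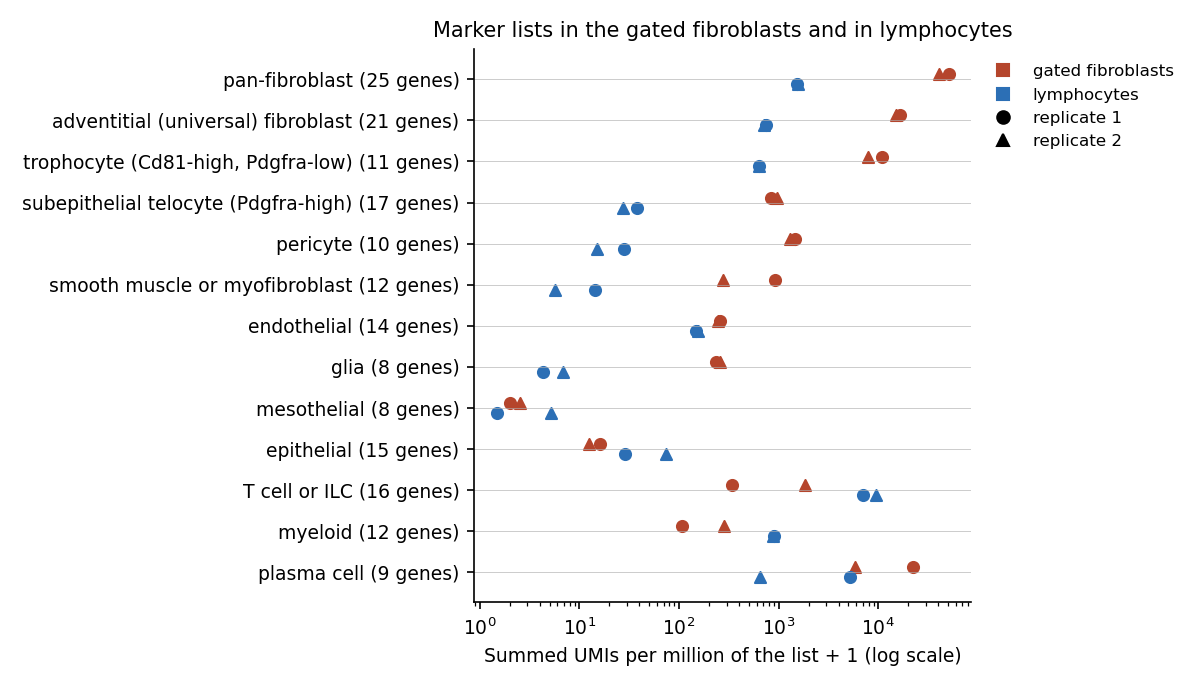
Summed CPM plus 1 (log axis) of 13 marker lists in members and lymphocytes, with 1 point per class and replicate. Members lie above lymphocytes for the 4 fibroblast lists, for the pericyte, smooth muscle, endothelial and glial lists and for the plasma cell list, and below them for the T cell or ILC, myeloid and epithelial lists.

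The members were next compared with the lymphocytes of the same captures. Of 11139 genes tested, 2816 (25.3%) were higher in members and 1986 (17.8%) were lower, by edgeR's quasi-likelihood test on sums per replicate with Benjamini-Hochberg adjustment over all genes. DESeq2 called 21.3% higher and 11.9% lower, and in the strict set edgeR called 3198 of 10048 genes (31.8%) higher and 3016 (30%) lower. The genes of the rule and of the lymphocyte definition were left out. Both classes were cut from the counts of these same cells, so that fibroblast genes are higher in members follows in large part from the choice. A gene near 0 in lymphocytes could pass the low-count filter only through members or other stromal cells. For such genes a higher call was largely fixed beforehand, so a list with all tested genes higher is description. The test shows only that a difference was large beside a spread pooled largely over genes. It does not show that the difference was of like size in both replicates. The common biological coefficient of variation was 0.2445, and the median log2 fold change over all genes was 0.02. Log2 fold changes are members over lymphocytes, with an approximate standard error (SE) taken from the F statistic.

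**Figure D4:**
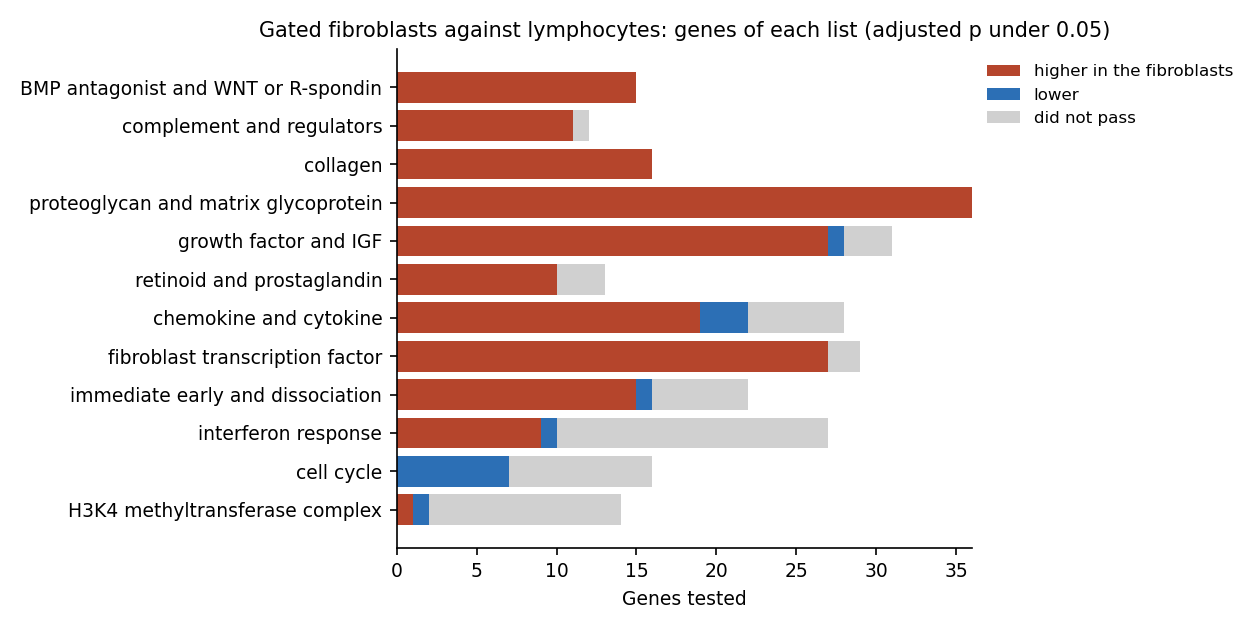
Number of genes tested in 12 lists (horizontal axis), split into those higher in members, lower in members, or not past an adjusted p of 0.05 against lymphocytes. All 15 BMP and WNT genes, 16 collagens and 36 matrix genes that were tested were higher, whereas 12 of 14 H3K4 methyltransferase genes did not pass. Genes near 0 in lymphocytes were tested only where members or other stromal cells carried them.

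Of 23 listed BMP antagonist and WNT or R-spondin genes 15 were tested, and all 15 were higher in members, which the filter favours. The median log2 fold change was 7.52, or 7.32 with the 2 genes at 0 in lymphocytes set to their bound. Fst, which encodes follistatin, was among the listed genes too low to test. Rspo3, an R-spondin that strengthens WNT signals, stood at 102 and 103 CPM in members. Lymphocytes held 2 Rspo3 UMIs in all. The ratio of members to lymphocytes, in UMIs per class total over both replicates, was therefore 529, with a 95% interval from counting error alone of 146 to 4378 (edgeR adjusted p = 5.01e-06). Rspo2, of the same family, stood at 23.1 and 22.8 CPM and had no UMI in lymphocytes, so it was at least 79.2-fold higher, with 3 UMIs over both lymphocyte sums as the floor.

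Both R-spondins were thus at nearly equal levels in the 2 replicates, unlike the genes of the rule. Sfrp1, a secreted WNT antagonist, stood at 4637 and 3122 CPM in members against 38.5 and 10.6 CPM, a log2 fold change of 7.81 (SE 0.68, edgeR adjusted p = 2.41e-05). Frzb, a related antagonist, stood at 63.6 and 67.9 CPM against 0.951 and 0.243 CPM. Dkk2, which binds the WNT co-receptor LRP6, stood at 110 and 74.1 CPM, with 3 UMIs in all lymphocytes (ratio 332, counting interval 113 to 1613). Agonists and antagonists of WNT were therefore both present in the class.

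BMP ligands were present in the same class as their antagonist. Bmp4 stood at 467 and 515 CPM in members against 9.03 and 2.67 CPM in lymphocytes, a log2 fold change of 6.96 (SE 0.66, edgeR adjusted p = 3.90e-05). Chrdl1, which encodes a chordin-like BMP antagonist, stood at 22.4 and 51.8 CPM. Wnt2b, a WNT ligand of the crypt region, stood at 43.5 and 33.7 CPM and Wnt5a at 24.1 and 18.6 CPM. Chrdl1, Wnt2b and Wnt5a are named from the list after their values were seen.

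Complement genes besides C3 were also carried by the members. Of 12 tested genes of the list 11 were higher in members, with a median log2 fold change of 7.10, or 6.73 with the gene at 0 in lymphocytes set to its bound. C1s1, a protease of the classical pathway, stood at 1787 and 1992 CPM against 21.4 and 5.95 CPM (log2 fold change 7.61, SE 0.71, edgeR adjusted p = 3.55e-05).

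Masp1, a protease of the lectin pathway, stood at 31.5 and 18.1 CPM, had no UMI in lymphocytes and was at least 90.4-fold higher. Serping1, the inhibitor of the C1 proteases, stood at 5552 and 5813 CPM and C4b at 2509 and 3414 CPM, while lymphocytes had 73.2 and 18.9 CPM of Serping1 and 40.9 and 33.3 CPM of C4b. A protease of the pathway and its inhibitor were thus found in the same class. These 2 genes are named after their values were seen. Cfd, which encodes factor D, and Cfi, which encodes factor I, had no UMI in members of either replicate. Over the whole list of 19 genes, C3 included, the summed level was 15552 and 19218 CPM in members against 255 and 121 CPM in lymphocytes.

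Of 28 tested chemokines and cytokines, 19 were higher in members, 3 were lower and 6 did not pass, with a median log2 fold change of 5.13. All 25 genes tested in the strict set passed, 21 of them higher and 4 lower. Cxcl13, which attracts B cells, stood at 155 and 157 CPM, with 3 UMIs in all lymphocytes (ratio 538, counting interval 183 to 2616). Ccl11, the eosinophil attractant eotaxin, stood at 419 and 283 CPM against 3.33 and 0.971 CPM (log2 fold change 8.01, SE 0.65, edgeR adjusted p = 1.56e-05). Cxcl14 differed between the replicates, at 24.8 CPM in replicate 1 and 106 CPM in replicate 2.

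Tslp, an epithelial and stromal alarmin, stood at 10 and 14.0 CPM with no UMI in lymphocytes, at least 39.9-fold higher. The interferon-induced chemokine Cxcl10 stood at 1408 and 790 CPM against 943 and 578 CPM in lymphocytes and did not pass (log2 fold change 0.89, SE 0.42, edgeR adjusted p = 0.12). Cxcl9 did not pass either, at 385 and 183 CPM against 394 and 161 CPM. Both were called higher in the strict set, Cxcl10 with a log2 fold change of 1.01 (edgeR adjusted p = 0.0220) and Cxcl9 with 0.58 (edgeR adjusted p = 0.0353). The 3 genes that were lower, named after their values were seen, were Cx3cl1, Csf2 and Tnfsf11, of which Tnfsf11, a cytokine of ILC3s and stroma, stood at 17.7 and 70.4 CPM against 374 and 376 CPM. In the strict set Tnfsf11 stood at 7.19 and 29.6 CPM.

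The matrix genes moved together. All 16 tested collagens that are not part of the rule were higher (median log2 fold change 7.76), and so were all 36 tested proteoglycan and matrix glycoprotein genes (median 7.72). Lum, a small proteoglycan of collagen fibrils, stood at 1276 and 1166 CPM against 7.13 and 2.55 CPM (log2 fold change 8.52, SE 0.52, edgeR adjusted p = 5.27e-06). Col6a3, a chain of the microfibril collagen VI, stood at 1061 and 809 CPM against 6.66 and 2.67 CPM (8.14, SE 0.45, edgeR adjusted p = 5.01e-06). Fbln2, an elastic fibre protein of adventitial fibroblasts, stood at 504 and 511 CPM against 1.90 and 0.971 CPM.

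Among genes with the largest fold changes by rule were Ecm2, Col8a1, Pi16 and C1qtnf7. Pi16, a marker of adventitial fibroblasts, stood at 114 and 147 CPM with 1 UMI in all lymphocytes (ratio 1314, counting interval 235 to 51986). C1qtnf7 stood at 52.5 and 67.3 CPM with none, at least 201-fold higher. Cd34, the surface marker shared by trophocytes and adventitial fibroblasts, stood at 1224 and 921 CPM against 7.61 and 2.91 CPM (log2 fold change 8.18, SE 0.47, edgeR adjusted p = 5.01e-06). Ly6c1 of the trophocyte and adventitial lists stood at 706 and 477 CPM.

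Of the fibroblast subtype lists, all 11 tested trophocyte genes were higher (median log2 fold change 7.39, or 7.21 with the gene at 0 in lymphocytes at its bound) and 20 of 21 adventitial genes (7.61). All 13 tested telocyte genes were higher too, with a median of 6.26, or 5.43 with the gene at 0 at its bound, while Foxl1, Sox6, Bmp3 and Bmp7 were too low to test. The trophocyte and adventitial lists share genes such as Ly6c1, and no test set one against another. The pan-fibroblast list had 24 of 25 genes higher, and the exception was Thy1, a surface protein of T cells and ILCs as well, at 34.1 and 180 CPM in members against 624 and 749 CPM. Dpp4 was the exception of the adventitial list, at 2.34 and 8.29 CPM against 44.7 and 49.0 CPM. Thy1 and Dpp4 are named after their values were seen.

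Growth factor genes were mostly higher, with 27 of 31 up, 1 down and 3 that did not pass (median log2 fold change 6.37, or 6.29 with the 2 genes at 0 in lymphocytes at their bound). Igf1, insulin-like growth factor 1, stood at 490 and 372 CPM against 1.43 and 1.21 CPM (8.60, SE 0.42, edgeR adjusted p = 5.01e-06). Ereg, an epidermal growth factor receptor ligand, stood at 888 CPM in replicate 1 and 325 CPM in replicate 2 against 3.80 and 1.09 CPM (8.48, SE 0.86, edgeR adjusted p = 6.18e-05). Fgf7, a growth factor for epithelium, stood at 59.2 and 73.6 CPM against 0.475 and 0.607 CPM. Vegfa, a vascular growth factor, did not pass, at 106 and 105 CPM against 233 and 222 CPM (−0.75, SE 0.30, edgeR adjusted p = 0.073).

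Of 13 tested retinoid and prostaglandin genes 10 were higher in members (median log2 fold change 5.53). Hpgd, which breaks down prostaglandin E2, stood at 42.5 and 105 CPM with 1 UMI in all lymphocytes (ratio 692, counting interval 123 to 27404). Ptgs2, which makes the precursor of prostaglandin E2, stood at 463 and 363 CPM against 273 and 296 CPM and did not pass (0.90, SE 0.33, edgeR adjusted p = 0.054).

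Of 29 tested fibroblast transcription factors 27 were higher (median log2 fold change 5.73), and Foxp1 and Zeb1 did not pass. Tcf21, a factor of mesenchymal development, stood at 292 and 439 CPM against 1.90 and 0.607 CPM (8.87, SE 0.56, edgeR adjusted p = 5.56e-06). Nkx2-3, a gut mesenchyme factor named after its values were seen, stood at 215 and 216 CPM against 1.43 and 1.34 CPM. Of 9 tested lymphoid stroma genes 7 were higher, among them Pdpn, the surface glycoprotein podoplanin, at 316 and 227 CPM, and 2 were lower.

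Genes of mural cells were higher in members than in lymphocytes as well, with 5 of 6 tested pericyte genes and 11 of 12 smooth muscle genes. Rgs5, a regulator of G protein signalling known from pericytes, stood at 1207 and 1046 CPM against 10.5 and 3.76 CPM (7.82, SE 0.55, edgeR adjusted p = 8.10e-06). Cox4i2, another pericyte marker, was at 0 in members of both replicates. Of 4 tested endothelial genes 3 were higher, namely Ramp2, Plvap and Tek. The exception was Pecam1, an endothelial and leukocyte adhesion gene, which was lower, at 21.4 and 42.0 CPM against 135 and 149 CPM (−1.89, SE 0.30, edgeR adjusted p = 0.000991).

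Lymphocyte and myeloid genes were lower. All 7 tested T cell or ILC genes fell, as did 3 of 5 tested myeloid genes. Gzma, a granule protease of cytotoxic lymphocytes, stood at 42.5 and 70.4 CPM in members against 1385 and 1826 CPM (−4.52, SE 0.41, edgeR adjusted p = 2.93e-05). Ptprc, the leukocyte antigen CD45, stood at 32.5 and 191 CPM against 1082 and 1174 CPM (−3.39, SE 0.55, edgeR adjusted p = 0.00101). Its level in members was higher in replicate 2, as was the share of members with a lymphocyte UMI. Of the plasma cell list 2 of 5 tested genes were higher in members, among them Txndc5 at 306 and 196 CPM against 40.4 and 22.8 CPM (3.37, SE 0.90, edgeR adjusted p = 0.0144). Members with 10% or more immunoglobulin UMIs were part of these sums, and their part in this difference was not tested by itself. In the strict set, which leaves out such members among others, 1 of 2 tested genes of the list was higher.

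Immediate early and dissociation genes were at high levels in both classes, with a sum of 33733 and 34615 CPM in members against 18754 and 21649 CPM. Of 22 tested genes 15 were higher, 1 was lower and 6 did not pass, with a median log2 fold change of 1.39. Egr1, a rapidly induced transcription factor, stood at 6108 and 4687 CPM against 911 and 552 CPM (3.25, SE 0.42, edgeR adjusted p = 0.000285), and Jun did not pass, at 3398 and 3662 CPM against 2341 and 2748 CPM. Of 27 tested interferon response genes 9 were higher, 1 was lower and 17 did not pass (median 0.82). The higher share of 33.3% was near the 25.3% of all genes. In the strict set 16 (59.3%) were higher and 3 (11.1%) lower, against 31.8% and 30% of all genes. Iigp1, an interferon-induced GTPase, stood at 2391 and 1168 CPM against 116 and 80.2 CPM (4.49, SE 0.39, edgeR adjusted p = 2.32e-05). B2m, the light chain of class I molecules, did not pass, at 8503 and 8172 CPM against 9220 and 7771 CPM.

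Of 16 tested cell cycle genes 7 (43.75%) were lower and 9 did not pass by edgeR (median log2 fold change −1.34), against 17.8% of all genes lower. DESeq2 called 3 of the 16 lower (18.75%), near its 11.9% of all genes. In the strict set edgeR called 12 of 13 lower (92.3%), against 30% of all genes. Top2a, a topoisomerase of dividing cells, stood at 15.1 and 10.9 CPM against 126 and 66.2 CPM (−2.56, SE 0.72, edgeR adjusted p = 0.0181). Mki67 did not pass, at 21.4 and 11.4 CPM against 71.3 and 39.2 CPM.

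Cxxc1, the gene floxed in these mice, encodes a subunit of the SET1 H3K4 methyltransferase complex. It stood at 66.9 CPM (95% Poisson interval 58.0 to 76.9) and 54.4 CPM (44.5 to 65.8) in members and at 58.9 CPM (49.0 to 70.3) and 62.5 CPM (57.2 to 68.2) in lymphocytes. The intervals overlap, and the tables give 1 count per gene, so they do not show whether the floxed part was deleted. Of 14 tested H3K4 methyltransferase genes 12 did not pass (median log2 fold change −0.27). In the strict set 1 (7.14%) was higher and 4 (28.6%) were lower, against 31.8% and 30% of all genes. DESeq2 called 1 lower and did not call Men1. Men1, which encodes menin, was higher, at 23.1 and 17.6 CPM against 13.8 and 12.5 CPM (0.95, SE 0.33, edgeR adjusted p = 0.0426) and the methyltransferase gene Kmt2d was lower, at 49.5 and 52.8 CPM against 116 and 145 CPM (−0.99, SE 0.28, edgeR adjusted p = 0.0172).

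Members were also compared with the 71 and 31 other stromal cells. Of 11175 genes tested, 1016 (9.09%) were higher and 460 (4.12%) were lower in members by edgeR's quasi-likelihood test (7.62% and 3.35% by DESeq2). In the strict set, where 3 other stromal cells of replicate 1 and 1 of replicate 2 remained, 488 of 10069 genes (4.85%) were higher and 7 (0.0695%) lower. The other stromal cells held only 556797 and 109658 UMIs, and most carried immunoglobulin or lymphocyte RNA, as given above. This comparison therefore sets the members against a small mixed class.

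Scara5, a ferritin receptor of fibroblasts, stood at 199 and 111 CPM in members and had no UMI in the other stromal cells, so it was at least 36.5-fold higher, with 3 UMIs over both sums as the floor. Angptl1, a secreted angiopoietin-like protein, stood at 124 and 191 CPM (at least 33.3-fold), Dkk2 at 110 and 74.1 CPM (at least 21.4-fold) and Ccl7, a chemokine for monocytes, at 77.7 and 68.4 CPM (at least 16.4-fold). Clec11a, a secreted growth factor, stood at 119 and 92.2 CPM with 1 UMI in the other stromal cells (ratio 72.5, counting interval 13 to 2869). These genes were absent or nearly so in the other stromal cells, where 1 UMI is worth 1.8 CPM in replicate 1 and 9.12 CPM in replicate 2. They were picked for the largest fold changes and could pass the low-count filter only through members or lymphocytes. Their values against this class are therefore description.

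Gene lists behaved unevenly in this comparison. Of the proteoglycan and matrix list 34 of 37 tested genes were higher, of the BMP and WNT list 11 of 15 and of the complement list 9 of 12. The 37 include Dcn, a gene of the stromal rule. Other stromal cells held medians of 12 and 16 stromal UMIs against 515 and 361 in members, so higher fibroblast genes follow largely from the choice. A gene near 0 in the other stromal cells could pass the low-count filter only through members or lymphocytes, so these counts are description. Higher calls were also made for 5 of 13 telocyte genes and for 1 of 12 smooth muscle genes, the latter a share near that of all genes. Among cell cycle genes 11 of 16 were lower, but the replicates differed. The median log2 fold change of these 16 genes was −3.74 in replicate 1 and 0.26 in replicate 2. The list summed to 204 and 208 CPM in members against 1891 and 347 CPM in the other stromal cells. In the strict set the counts were 25 of 36 matrix genes, 2 of 13 BMP and WNT genes and 7 of 11 complement genes, against 4.85% of all genes. Only 3 and 1 other stromal cells remained there, too few to judge these lists. DESeq2 called 7 of the 16 cell cycle genes lower, and with so few other stromal cells the strict set cannot judge this list. Gzma was lower in members, at 42.5 and 70.4 CPM against 309 and 1642 CPM (−3.63, SE 0.40, edgeR adjusted p = 0.00188).

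Members with and without a Grem1 UMI were then compared within the class. Replicate 1 held 281 with and 62 without, and replicate 2 held 219 and 44. The cells without were shallower, with medians of 6292.5 and 4746 UMIs against 8814 and 7208, and held fewer stromal UMIs (244 and 138.5 against 567 and 430). A cell without a Grem1 UMI may therefore still express the gene. Of 10416 genes tested, 2 (0.0192%) were higher and 7 (0.0672%) lower in members with Grem1 by edgeR's quasi-likelihood test, and 0 passed without the replicate block, where 273 higher and 206 lower genes had an unadjusted p under 0.05. DESeq2 with the block called 10 higher (0.096%) and 12 lower (0.115%).

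Dkk2 was 1 of the 2 higher genes. It stood at 126 and 84.1 CPM in members with Grem1 against 14.3 and 7.90 CPM in those without (log2 fold change 3.36, SE 0.42, edgeR adjusted p = 0.0373). When each cell was thinned to 2000 UMIs it did not pass, with a log2 fold change of 2.20 (edgeR adjusted p = 0.141). In the strict set Dkk2 passed, and 66 of 7514 genes (0.878%) were higher and 45 (0.599%) lower.

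**Figure D5:**
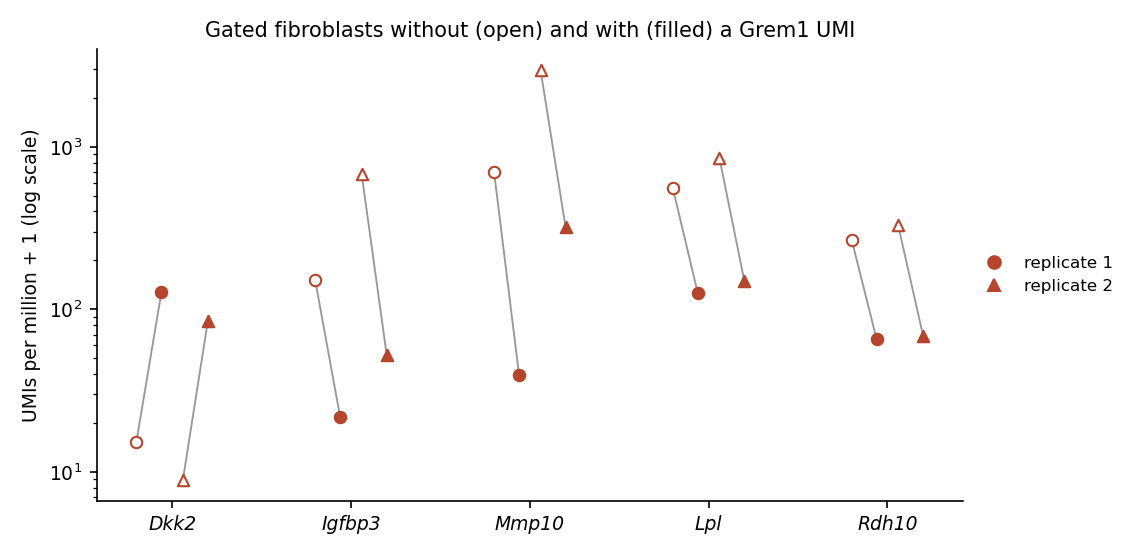
CPM plus 1 (log axis) of 5 genes in members without (open) and with (filled) a Grem1 UMI, joined within each replicate. Dkk2 is higher with Grem1, and Igfbp3, Mmp10, Lpl and Rdh10 are lower, in both replicates.

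Of the 7 lower genes, 2 were immunoglobulin variable genes, C6 was another, and the remaining 4 fell under the rule for named genes. Igfbp3, which binds insulin-like growth factors, stood at 20.6 and 51.3 CPM with Grem1 and at 150 and 676 CPM without (−3.15, SE 0.33, edgeR adjusted p = 0.0114). Mmp10, a secreted matrix metalloproteinase, stood at 38.6 and 320 CPM against 702 and 2975 CPM (−3.56, SE 0.46, edgeR adjusted p = 0.0373). Both were higher in replicate 2 than in replicate 1 in either class, and higher without Grem1 in each replicate.

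Lpl, lipoprotein lipase, stood at 124 and 148 CPM against 555 and 857 CPM (−2.18, SE 0.32, edgeR adjusted p = 0.0461). Rdh10, which makes retinal on the way to retinoic acid, stood at 64.3 and 67.4 CPM against 267 and 328 CPM (−2.0, SE 0.28, edgeR adjusted p = 0.0403). For each of these 4 genes both values with Grem1 lay below both values without. Without the cells marked by Scrublet, Igfbp3 still passed (edgeR adjusted p = 0.0247), and Mmp10, Lpl and Rdh10 did not (0.0613, 0.0911 and 0.0744), nor did Dkk2 (0.0613). With cells thinned to 2000 UMIs the 4 lower genes passed.

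Other genes differed in the same direction in both replicates without passing the test, and are named after their values were seen. Rspo3 stood at 113 and 114 CPM with Grem1 and at 38.1 and 23.7 CPM without. Fgf7 stood at 66.6 and 83.5 CPM against 14.3 and 7.90 CPM, and Cd81 at 83.0 and 185 CPM against 26.2 and 11.9 CPM. Chrdl1 stood at 26.1 and 59.6 CPM with Grem1 and had no UMI without. In the other direction, Adamdec1, a metalloproteinase gene of gut fibroblasts, stood at 1740.5 and 1399 CPM with Grem1 and at 3357 and 7237 CPM without, Aldh1a3, which makes retinoic acid, at 233 and 179 CPM against 507 and 893 CPM, and Cxcl14 at 16.7 and 39.3 CPM against 73.8 and 549 CPM.

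Ogn, C3 and Col14a1, which are also genes of the rule, were higher in members with Grem1 in both replicates. The rule does not fix this direction. A member without Grem1 must reach the threshold with the other genes alone, which favours higher levels of them in such members. The cause of the difference was not tested. Ogn stood at 266 and 541 CPM with Grem1 and at 45.2 and 59.3 CPM without, C3 at 2973 and 5471 CPM against 1988 and 1185 CPM, and Col14a1 at 1171 and 1884 CPM against 974 and 1074 CPM. Of the pan-fibroblast genes 0 of 25 passed by edgeR or by DESeq2 (5 and 2 higher at an unadjusted p under 0.05), where few genes passed in all, with a median log2 fold change of 0.21 against 0.02 over all genes. Their summed level was 51901 and 42941 CPM with Grem1 against 45335 and 27435 CPM without.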

How the data were processed

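The deposited tables hold counts of molecules (UMIs) per cell and gene, not normalised, and the sample tag of each cell is a call (other than a count) that the authors deposited beside them. Per the file headers, version 1.8 of the BD WTA Multiplex Rhapsody pipeline made both, on GRCm38 and GENCODE vM19. HISAT2 2.0.5 and Bowtie2 are listed, with no role, in the submitters' processing notes. Only the 21027 genes of both tables were used, which dropped 0.0343% and 0.0105% of the UMIs.

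UMIs were summed per replicate and class, and edgeR 4.0.16 under R 4.3.3 was fitted to the sums: quasi-likelihood test, two-sided, with TMM, filterByExpr and the replicate as a block, since the classes of a replicate come from the same tagged cells. One fit held 6 sums (members, other stromal cells, lymphocytes) with 2 residual and 7.061 prior degrees of freedom, the other 8 sums with members split by Grem1. The threshold was an adjusted p of 0.05 (Benjamini-Hochberg over all genes tested). Small p-values rest largely on spread pooled over genes, wholly so in the strict set and in the fits without lymphocyte UMIs or without the low-count filter. SE is the absolute log2 fold change over the square root of F.

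The members, the 26 gene lists and the tests were chosen with earlier results of these data known. Named genes were those with at least 50 CPM in the higher class and the largest fold changes (12 or 6 per direction), and from each list up to 4 that passed and 3 that did not. Gene positions are from GENCODE vM21. Alternatives were DESeq2 1.42.0, other gates and filters, thinning, Scrublet (scanpy 1.11.5) and leaving out each replicate. Some genes are not reported here.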

Additional observations from a re-analysis of the deposited data

How the results depend on the processing

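Against the other stromal cells, the count of genes higher in members (1016) was 238 with cells thinned to 2000 UMIs, 438 without stromal cells holding a lymphocyte UMI, 248 with at least 30 stromal UMIs and 488 in the strict set. The count lower (460) was 722 with a member gate of 2 UMIs, 124 thinned, 167 without lymphocyte UMIs, 40 with at least 30 stromal UMIs, 7 in the strict set, 922 without the low-count filter and 280 with only these classes fitted. Gzma stood at a fitted log2 fold change of 10.29 with at least 30 stromal UMIs (edgeR adjusted p = 0.0261) and 7.07 in the strict set (0.712), over 9 and 7 and over 3 and 1 other stromal cells, too few to judge a single gene. The median over all genes was 7.83 in the strict set. Against lymphocytes, the count lower (1986) was 3016 in the strict set. For the Grem1 split, the counts of 2 higher and 7 lower became 69 and 37 without lymphocyte UMIs, 0 and 2 without Scrublet calls (283 higher at an unadjusted edgeR p under 0.05), 35 and 22 with at least 30 stromal UMIs, 66 and 45 in the strict set, 10 and 12 by DESeq2, 116 and 47 without the low-count filter, and 0 and 0 without the replicate block. Dropping the block gave 948 higher and 333 lower against other stromal cells and 2844 and 1921 against lymphocytes. The member share of stromal cells in replicate 1 (82.8%) was 91.7% thinned, 93.0% without lymphocyte UMIs, 46.5% with at least 5 stromal UMIs, 96.3% with 20, 97.4% with 30 and 98.9% in the strict set. In replicate 2 (89.5%) it was 92.9% with a member gate of 2 UMIs, 96.1% without lymphocyte UMIs, 74.6% with 5 stromal UMIs, 95.8% with 20, 97.3% with 30 and 99.1% in the strict set. The cause of these shifts was not tested. With 1 replicate left out no residual degrees of freedom remained, so only log2 fold changes could be computed. The gates of 30 stromal UMIs and the strict set were chosen after the data were seen.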
